A study of Mus musculus with 8 samples.

Results

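Signal levels of 9 genes of the Wnt pathway, Wnt4, Wnt5a, Wnt6, Rspo1, Ctnnb1, Lef1, Axin2, Sfrp1 and Dkk3, were compared between wild type and VRK1-deficient testes. They were taken by gene name from the non-control probes of the arrays, and belong to a list of 103 genes of the pathway. In all, 17950 gene symbols had a tested signal. They cover 3 ligands, 1 agonist, 2 secreted proteins of inhibitor families, β-catenin, 1 nuclear factor and 1 target. Wnt proteins are secreted ligands that bind Frizzled receptors on neighbouring cells. In the canonical branch the signal stabilizes β-catenin, which joins LEF1 or a TCF factor in the nucleus and switches on targets such as Axin2, while R-spondins raise and SFRP and Dickkopf proteins dampen or modify the response. In the gonad WNT4 and R-spondin 1 are known for promoting ovarian fate, and in the postnatal testis WNT5A and WNT6 from Sertoli cells are known as signals to spermatogonial stem cells.

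Total testicular RNA of mice at postnatal day 8, early in the first wave of spermatogenesis, was measured on 1-colour Agilent arrays. There were 4 wild type and 4 VRK1-deficient samples, each on an array of its own. VRK1-deficient mice were homozygous for a gene trap in intron 3 of Vrk1, which encodes a mitotic kinase. The trap carries a β-geo reporter (β-galactosidase fused to neomycin resistance), came from 1 embryonic stem cell clone and was crossed onto C57BL/6. The allele is hypomorphic and leaves some full-length transcript, and it is not limited to 1 cell type. Values are log2 signals relative to the 75th percentile of the same array, and changes subtract the wild type mean from the VRK1-deficient mean. A gene with several probes is given by its brightest probe, and a gene was called at a limma adjusted p under 0.05. In a whole organ, fewer cells of a type and less RNA per cell cannot be told apart.

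The 2 probes of Vrk1 were at 6.54% and 6.23% of the wild type signal in VRK1-deficient testes (log2 changes -3.93 and -4.00, limma adjusted p = 2.09e-05 and 0.000135), although their place relative to the trap was not determined. Signals well above background on at least 4 arrays were found for 26962 of 41174 probes and tested, and with 4 arrays per genotype the number of arrays limits precision. On both slides wild type samples took positions 1 and 2 and VRK1-deficient samples positions 3 and 4, so position and genotype cannot be told apart. Wild type replicate 1 stood apart from its group, since Pearson's r across probes was 0.987 to 0.990 against VRK1-deficient arrays but 0.970 to 0.986 against the remaining wild type ones. Wild type replicate 3 had the lowest r with VRK1-deficient arrays, at 0.963 to 0.976, and 0.970 to 0.986 with the wild type ones. Most results on the Wnt genes listed above are therefore given with and without wild type replicate 1. That array was singled out on these same data for its likeness to the other genotype. Without it the called probes rose from 986 to 7659, so calls made without it are no separate test. The summed linear level of 10 germ cell markers, which rests mainly on the brightest of them, was 85.4 on that array. It was 154 to 216 on the other wild type arrays and 53.9 to 94.6 on the VRK1-deficient arrays.

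The 9 genes had 15 probes, of which 13 were tested. Probes of the ligands are shown first, since related Wnt genes can share stretches of sequence. The Wnt4 and Wnt5a probes both lie in the conserved coding part of the genes and both cross an intron, so they are printed here with the bases that are identical in their best alignment without gaps in capitals.
Wnt4: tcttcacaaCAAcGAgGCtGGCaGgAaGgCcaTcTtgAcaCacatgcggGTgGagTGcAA
Wnt5a: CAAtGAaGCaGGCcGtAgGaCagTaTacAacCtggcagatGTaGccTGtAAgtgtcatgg
Of 51 aligned bases, 25 (49.0%) were identical. On build mm7, the build of the array files, the Wnt4 probe is placed on chromosome 4 from 136674216 to 136674784 and the Wnt5a probe on chromosome 14 from 25948244 to 25952114. Both run on the plus strand and span 569 and 3871 bases for 60 bases of probe. For Lef1, the gene with the largest change among the 9, 1 of the probes reads over the end of the coding sequence. Its first 35 bases are shown with the stop codon in capitals.
Lef1: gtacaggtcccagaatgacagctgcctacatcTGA
That probe is placed on chromosome 3 from 131041424 to 131059585, across 18162 bases of the genome, and the brighter Lef1 probe starts 1024 bases further on, from 131060609 to 131060668. The exon or UTR of the other probes was not determined here.

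None of the 8 tested genes was called, whereas 4.09% of all 17950 genes were. The unadjusted limma p was under 0.05 for 5 of the 8, compared with 29.6% of all genes. The unadjusted p of the methods' t-test was under 0.05 for 4, and the share of all genes by that test is not given here. For Wnt5a, Rspo1 and Dkk3, 3 of the 8, wild type and VRK1-deficient arrays had no overlap in signal, against 17.7% of all genes. The median log2 change was -0.048 for the 8 genes and 0.044 for all genes. Without wild type replicate 1, 4 of the 8 were called, Wnt5a and Wnt6 higher and Lef1 and Dkk3 lower, in a comparison in which 28.9% of all genes were called.

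**Figure D1:**
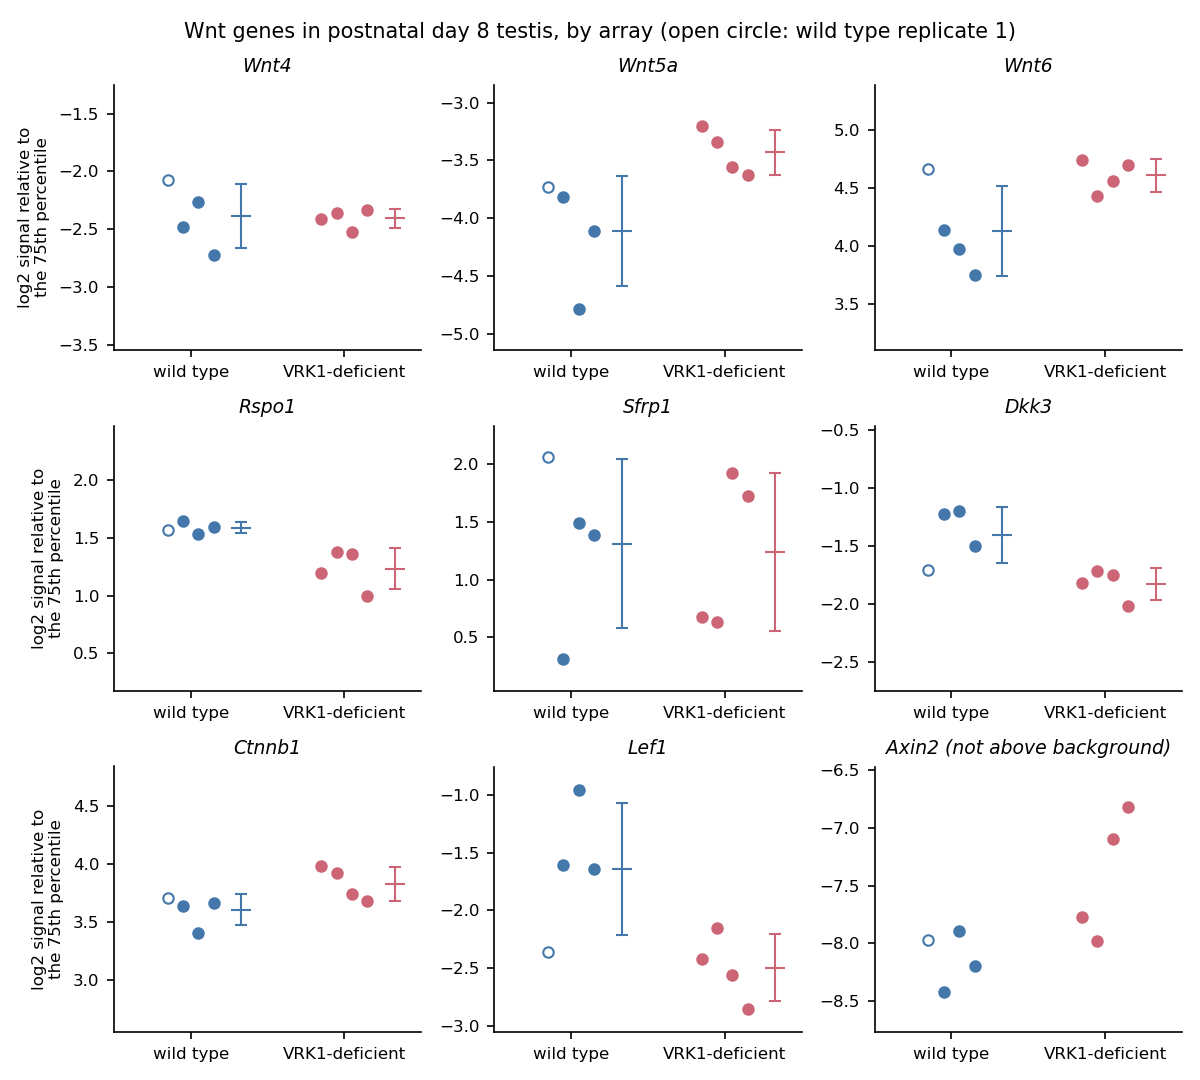
Log2 signal of the 9 genes relative to the 75th percentile of each array (y axis, the same length of scale in each panel), by genotype (x axis), with 1 point per array and the mean and SD beside the points except for Axin2. The genotypes are separate for Wnt5a, Rspo1 and Dkk3, while for Wnt6 and Lef1 the open circle, wild type replicate 1, lies among the VRK1-deficient arrays (4.66 and -2.36).

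Among the ligands, Wnt5a had the larger difference between genotypes and Wnt4 almost none. Wnt5a, a ligand known mainly for signalling that bypasses β-catenin, read -3.73, -3.81, -4.78 and -4.11 in wild type replicates 1 to 4 and -3.21, -3.34, -3.56 and -3.62 in VRK1-deficient replicates 1 to 4. Every VRK1-deficient array lay above every wild type array, with the lowest wild type value on replicate 3. This gave a log2 change of 0.68 (SE 0.23, 95% interval 0.16 to 1.19, 1.60-fold higher), which was not called (limma adjusted p = 0.0984). Slide 1 alone gave 0.50 and slide 2 alone 0.85. Leaving out wild type replicate 1 gave 0.80 (limma adjusted p = 0.0317), and the adjusted p was 0.110 to 0.239 when any 1 other array was left out. Without wild type replicate 3 the change was 0.45. A normexp background correction gave 0.44 (limma adjusted p = 0.0650). It adds an offset of 50 to every signal before the arrays are scaled, which alters the values of dim probes. Their changes did not all become smaller, as that of the dim gene Lgr6 went from 0.29 to 0.31. The part of the offset in these values was not tested.

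Wnt6 had 2 probes that gave nearly the same result. On the brighter probe (NM_009526, chromosome 1 from 75024567 to 75024626), wild type arrays read 4.66, 4.13, 3.97 and 3.75 and VRK1-deficient arrays 4.74, 4.43, 4.56 and 4.70. Wild type replicate 1 was within the VRK1-deficient range and the other 3 wild type arrays were below it. The log2 change was 0.48 (SE 0.19, limma adjusted p = 0.140), and that of the second probe (M89800) was 0.50 (SE 0.20, limma adjusted p = 0.144). The slides differed, with 0.19 on slide 1, which holds wild type replicate 1, and 0.77 on slide 2. Without that array the brighter probe changed by 0.66 (limma adjusted p = 0.0107), against an adjusted p of 0.171 to 0.299 without any 1 of the others.

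Wnt4, the ligand with a role in ovarian fate, differed little. It read -2.07, -2.48, -2.26 and -2.72 in wild type and -2.41, -2.36, -2.52 and -2.33 in VRK1-deficient testes. The VRK1-deficient values all lay inside the wild type range. Its log2 change was -0.023 (SE 0.15, limma adjusted p = 0.934), and the 95% interval of -0.36 to 0.31 gives the size of difference that these arrays leave possible.

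Rspo1 encodes R-spondin 1, a secreted agonist that keeps Frizzled receptors on the cell surface through its LGR receptors. Its probe (NM_138683, chromosome 4 from 124453673 to 124453732) read 1.57, 1.65, 1.53 and 1.60 in wild type and 1.20, 1.38, 1.36 and 1.00 in VRK1-deficient testes. The wild type arrays were close together, replicate 1 included, and all lay above the VRK1-deficient arrays. A log2 change of -0.35 resulted (SE 0.12, 95% interval -0.62 to -0.088, 1.28-fold lower), and it was not called (limma adjusted p = 0.0967). It was -0.32 and -0.39 within slides 1 and 2 and -0.36 without wild type replicate 1 (limma adjusted p = 0.0624). Without scaling between arrays, where the median change of all genes was -0.14, it was -0.53. Of the 9 genes, Rspo1 thus had the change that moved least with that array among those whose genotypes did not overlap.

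The secreted proteins of inhibitor families did not move alike. Dkk3, a divergent member of the Dickkopf family, read -1.71, -1.22, -1.19 and -1.50 in wild type and -1.82, -1.72, -1.75 and -2.02 in VRK1-deficient testes (NM_015814, chromosome 7 from 108032840 to 108032899, minus strand). The genotypes did not overlap, although wild type replicate 1 was barely above the highest VRK1-deficient array. Dkk3 had a log2 change of -0.42 (SE 0.14, 95% interval -0.75 to -0.095, limma adjusted p = 0.103), with -0.31 on slide 1 and -0.54 on slide 2. It was -0.52 without wild type replicate 1 (limma adjusted p = 0.0200), and the adjusted p was 0.146 to 0.245 without any 1 of the other arrays.

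Sfrp1, a secreted protein that binds Wnt ligands, was the most variable of the 9 genes. Its brighter probe (NM_013834, chromosome 8 from 22232957 to 22233016) read 2.06, 0.31, 1.49 and 1.39 in wild type and 0.67, 0.63, 1.92 and 1.72 in VRK1-deficient testes. The VRK1-deficient arrays were split by slide, low on slide 1 and high on slide 2. Between genotypes the brighter probe differed by -0.073 (SE 0.41, 95% interval -1.01 to 0.86, limma adjusted p = 0.922), with -0.53 on slide 1 and 0.38 on slide 2. The second probe (chromosome 8 from 22233645 to 22233704) lacked this spread, with SDs of 0.16 in both genotypes, and changed by 0.28 (SE 0.13, limma adjusted p = 0.192). The 2 probes of Sfrp1 therefore disagreed in direction and neither was called.

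Ctnnb1 encodes β-catenin, the transducer of the canonical branch and also a part of cell junctions. The brightest of its 3 probes (NM_007614, chromosome 9 from 120657994 to 120658053) was spotted 10 times on each array. It read 3.71, 3.64, 3.41 and 3.67 in wild type and 3.98, 3.93, 3.74 and 3.68 in VRK1-deficient testes, so the ranges overlapped by little. The log2 change was 0.23 (SE 0.12, 95% interval -0.048 to 0.50, limma adjusted p = 0.247). The other probes gave 0.16 (SE 0.12) and 0.13 (SE 0.22), all in the same direction and none of them called. Without scaling between arrays the brightest probe changed by 0.047. Without wild type replicate 1 it changed by 0.26 (limma adjusted p = 0.151).

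Lef1, a DNA-binding partner of β-catenin, had the smallest limma p of the 9 genes (unadjusted p = 0.0126). The brighter probe (AK083328) read -2.36, -1.61, -0.96 and -1.64 in wild type and -2.42, -2.15, -2.56 and -2.85 in VRK1-deficient testes. Wild type replicate 1 lay among the VRK1-deficient arrays, and the other 3 wild type arrays lay above all of them. The log2 change was -0.85 (SE 0.28, 95% interval -1.47 to -0.23, 1.80-fold lower), which was not called (limma adjusted p = 0.0906). The size of the difference depended on the slide, at -0.30 on slide 1 and -1.41 on slide 2. Without wild type replicate 1 it was -1.09 (limma adjusted p = 0.00997), and the adjusted p was 0.112 to 0.204 without any 1 of the others. Without wild type replicate 3 the change was -0.62. The normexp correction gave -0.54 (limma adjusted p = 0.110).

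The Lef1 probe over the end of the coding sequence changed by -0.42 (SE 0.23, limma adjusted p = 0.244), and by -0.64 without wild type replicate 1 (limma adjusted p = 0.0207). Both tested probes thus pointed the same way, with the smaller value on the probe printed above. The third Lef1 probe (AK042137) was not well above background on any array and was not tested.

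Axin2, a negative regulator of β-catenin and a widely used target of the canonical branch, gave no signal above background. Its only probe (NM_015732, chromosome 11 from 109059707 to 109059766) was not well above background on any of the 8 arrays. That probe is 25% G or C, the lowest share among the probes of these genes. Whether it can detect the transcript was not tested. Its log2 values lay between -8.42 and -7.89 in wild type and between -7.98 and -6.82 in VRK1-deficient testes. On these arrays the lowest probe that was well above background lay between -6.35 and -5.50, so no fold change is given.

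**Figure D2:**
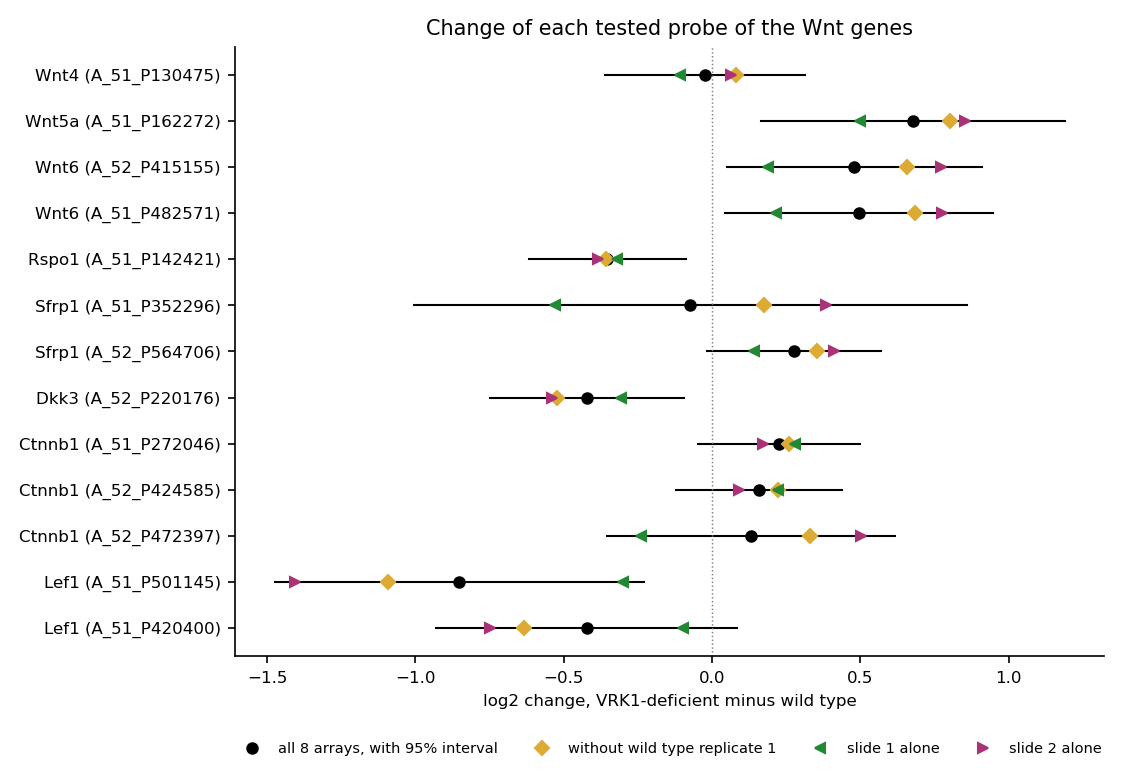
Log2 change (x axis, VRK1-deficient minus wild type) of the 13 tested probes (y axis), with black points and 95% intervals for all 8 arrays and coloured symbols for other choices of arrays. The symbols for slides 1 and 2 lie far apart for Lef1 (-0.30 and -1.41 on the brighter probe) and close together for Rspo1 (-0.32 and -0.39).

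Across the 8 arrays some of the genes followed each other. Pearson's r was 0.94 between Lef1 and Dkk3, 0.93 between Wnt5a and Ctnnb1 and 0.82 between Rspo1 and Dkk3, and it was -0.86 between Wnt6 and Lef1. These values hold the difference between genotypes and the position of wild type replicate 1, and are given as a description. The 3 genes most like Lef1 among 17946 were Usp14 (r = 0.995), Mad2l2 (0.995) and Ncbp2 (0.992), and 1078 genes had an r above 0.9. The log2 changes of these 3 genes were -0.49, -0.31 and -0.34, and none was called (limma adjusted p = 0.113, 0.184 and 0.143).

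The levels of cell type markers in the same samples are given here beside those of the Wnt genes. The arrays whose germ cell marker sum was low included wild type replicate 1, which is also where Lef1 was low and Wnt6 high. The germ cell markers had a median log2 change of -0.91, with 9 of 10 lower and 0 called (10 at an unadjusted limma p under 0.05, and all 10 called without wild type replicate 1). Among them were Dppa3 (-2.34, limma adjusted p = 0.0505) and Kit (-0.85, limma adjusted p = 0.0632), while Gfra1, a marker of undifferentiated spermatogonia, was the 1 above 0 (0.54, limma adjusted p = 0.0776). Gfra1 was also the 1 called higher without wild type replicate 1 (0.57, limma adjusted p = 0.0444). Of 12 Sertoli cell markers 9 were higher, with a median of 0.33 and 0 called (8 at an unadjusted limma p under 0.05, and 9 called without wild type replicate 1). The lower markers were Rhox5, Cldn11 and Gata1 (-1.08, -0.29 and -0.14). The 9 called without that array included the lower Rhox5 (-1.42, limma adjusted p = 0.0132) but not the higher Sox9 (0.38, limma adjusted p = 0.132). The summed level of the Sertoli cell markers was 261 on wild type replicate 1, 183 to 203 on the other wild type arrays and 233 to 274 on the VRK1-deficient arrays. Such linear sums rest mainly on the brightest markers, Clu and Dhh for Sertoli cells and Uchl1 and Stra8 for germ cells.

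The 6 markers of interstitial mesenchyme were all higher, with a median of 0.36 and 2 called, Dcn (0.56, limma adjusted p = 0.0446) and Pdgfra (0.50, limma adjusted p = 0.0492). Their summed level was 121 to 140 in wild type and 158 to 180 in VRK1-deficient testes, without overlap. Of the other lists, Leydig (0.35), endothelial (0.31) and mesothelial (0.33) markers had medians above 0 with 0 called (3, 1 and 0 at an unadjusted limma p under 0.05), peritubular myoid markers a median of -0.060 with 1 of 7 called (Cnn1, -0.99), and macrophage markers a median of 0.070 with 0 called (0 unadjusted) and 2 of 6 (Cd163 and Itgam) not tested. By the methods' t-test with adjustment 1 interstitial mesenchyme marker and 0 markers of any other list were called, so that the call of Cnn1 and 1 of the 2 interstitial calls were lost. The part of these cell types in the changes of the Wnt genes was not tested.

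**Figure D3:**
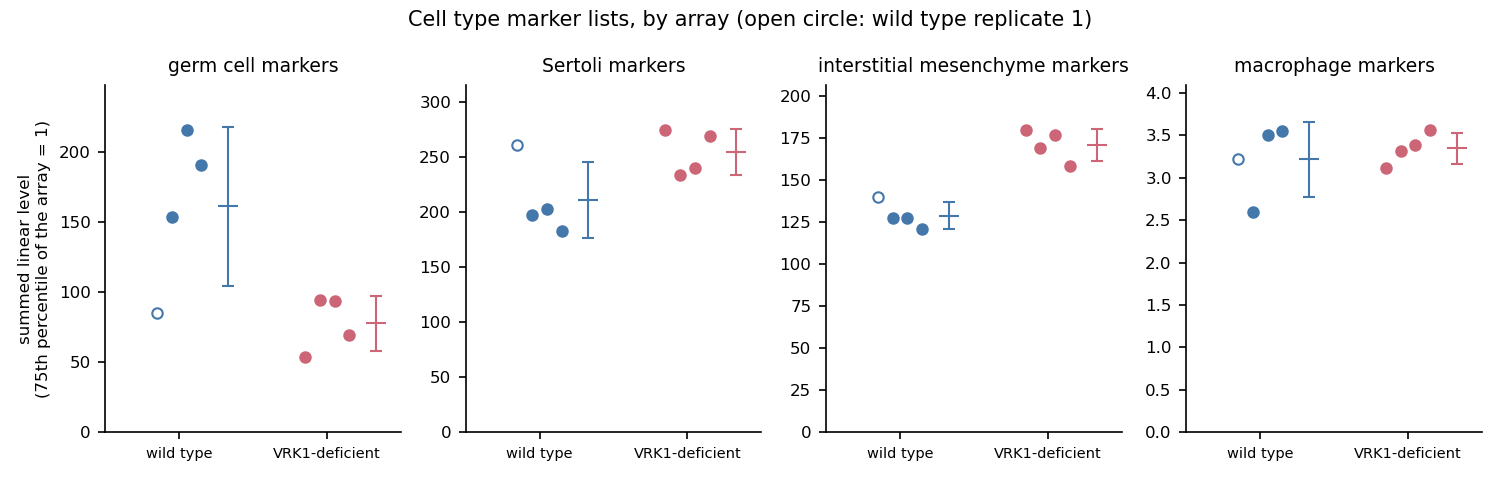
Summed linear level of 4 lists of cell type markers (y axis, the 75th percentile of the array set to 1, starting at 0) by genotype (x axis), with 1 point per array and the mean and SD beside them. The brightest markers of a list make up most of its sum. Wild type replicate 1, the open circle, lies with the VRK1-deficient arrays for germ cell (85.4) and Sertoli markers (261) but not for interstitial mesenchyme (140).

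Of the whole list of 103 pathway genes, 89 were tested and 7 were called, 3 lower and 4 higher, beside the 4.09% of all genes. The split depended on the scaling, with 1 lower and 3 higher under quantile normalization and 5 lower and 0 higher without scaling between arrays, where none of the 4 higher genes was called. The median log2 change of the 89 was 0.060, against 0.044 over all genes. Of the 89, 36 were below 0 and 53 above, where 45.1% of all genes were below 0. In 18 of them no wild type array overlapped with a VRK1-deficient one, beside the 17.7% of all genes. None of the 7 was among the 9 genes above. The 7 called genes had limma adjusted p-values of 0.0462 to 0.0492, close to the threshold, and all 7 were also called without wild type replicate 1, when 21 of the 89 and 28.9% of all genes were called. When any 1 of the other arrays was left out, 1 of the 89 (Wls) was called without wild type replicate 3 and 0 otherwise. With slide as a block 1 was called (Bambi), within slide 1 alone 0 and within slide 2 alone 1 (Fzd10).

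In the ligand and secretion roles, Wls, the carrier that brings Wnt proteins to the cell surface, rose. Wild type testes had a level of -0.043 ± 0.27 (SD, n = 4) and VRK1-deficient testes one of 0.65 ± 0.060 (SD, n = 4), so the log2 change was 0.70 (SE 0.15, limma adjusted p = 0.0473). The second Wls probe changed by 0.76 (limma adjusted p = 0.0666). Without scaling between arrays the brighter probe changed by 0.52 and was not called (limma adjusted p = 0.151). The other secretion gene, Porcn, which attaches the lipid of Wnt proteins, changed by 0.15 (limma adjusted p = 0.431). Of 13 tested ligands limma called 0, with 5 at an unadjusted p under 0.05. The methods' t-test with adjustment called 1, Wnt5b, named here after its values were seen (log2 change 0.28, SE 0.095, limma adjusted p = 0.102, and 0.0452 by the methods' t-test with adjustment over all probes). The largest changes beside those above were those of Wnt7b (-0.71, limma adjusted p = 0.0556) and Wnt2b (0.51, SE 0.61, limma adjusted p = 0.600), which was well above background on 3 arrays of each genotype. A normexp background correction left 0.042 for Wnt7b (limma adjusted p = 0.840), with the sign turned, and 0.32 for Wnt2b. Both genes are dim, and the part of the normexp offset in these values was not tested. Another 6 ligands were not tested because their probes were well above background on too few arrays.

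Among the R-spondins and their receptors, Rspo4 fell, as did the Frizzled receptor Fzd10. Rspo4 averaged -4.03 ± 0.40 (SD, n = 4) in wild type testes but -5.11 ± 0.37 (SD, n = 4) where VRK1 was deficient, so the log2 change was -1.07 (SE 0.24, limma adjusted p = 0.0492). This dim gene was well above background on 3 of 4 VRK1-deficient arrays. The normexp correction gave -0.16 (limma adjusted p = 0.437). Its offset alters the values of dim genes, so that value cannot tell whether the change holds. Fzd10 changed by -1.10 (SE 0.25, limma adjusted p = 0.0492), and its second probe by -1.33 (limma adjusted p = 0.0438). Of the other receptors, Ror1, a receptor for WNT5A, had the largest change (1.24, SE 0.59, 95% interval -0.085 to 2.56, limma adjusted p = 0.197) and was well above background on 3 arrays of each genotype. Its change with normexp, whose offset alters the values of dim genes, was 0.45 (limma adjusted p = 0.0644). Lgr6, an R-spondin receptor, changed by 0.29 (limma adjusted p = 0.326).

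Of 10 tested genes of the inhibitor role, which holds the Dickkopf coreceptor Kremen1 beside secreted proteins, and of 16 cytoplasmic components 0 were called. By limma 3 and 0 had an unadjusted p under 0.05, beside 29.6% of all genes. By the methods' t-test 3 and 2 did, without a share of all genes at hand. The largest changes of inhibitors were those of Sostdc1 (0.70, limma adjusted p = 0.0566) and Wif1 (-0.48, limma adjusted p = 0.0688). With normexp Sostdc1 was called (0.55, limma adjusted p = 0.0411), and Wif1 changed by -0.24. Those of cytoplasmic components were Gsk3b (-0.34, limma adjusted p = 0.224) and Gsk3a (0.32, limma adjusted p = 0.176), the kinases that mark β-catenin for destruction.

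In the nucleus Tle3, a Groucho corepressor that holds TCF targets off, fell by 0.86 on the log2 scale (SE 0.17, limma adjusted p = 0.0462), and its second probe by 0.64 (limma adjusted p = 0.0473). Pygo1, a coactivator of β-catenin, was well above background on 3 wild type arrays but on 1 VRK1-deficient array. Its value of -0.74 (SE 0.33, limma adjusted p = 0.172) thus sets wild type against a group near background. Normexp, whose offset alters the values of dim genes, gave 0.037, with the sign turned (limma adjusted p = 0.871). Of 12 tested targets 3 rose. These were Fgf9, a growth factor that supports testis fate (0.68, SE 0.15, limma adjusted p = 0.0492), Bambi, a pseudoreceptor of the TGF-β family (0.54, SE 0.12, limma adjusted p = 0.0477), and Ccn4, a matricellular protein also called WISP1 (0.48, SE 0.10, limma adjusted p = 0.0477). A normexp background correction ended the calls of Fgf9, a dim gene (0.42, limma adjusted p = 0.0566), and Ccn4 (0.41, limma adjusted p = 0.0944). Without scaling between arrays Fgf9, Bambi and Ccn4 changed by 0.50, 0.36 and 0.30 (limma adjusted p = 0.265, 0.392 and 0.462). Nkd1 and Sp5, a feedback inhibitor and a transcription factor, had the largest changes of targets (-0.80 and -0.76) and were not called (limma adjusted p = 0.0606 and 0.0720), although normexp called Nkd1 (-0.75, limma adjusted p = 0.0325). Of the 12 targets 6 had a value below 0 and 6 above, and 0 of the 6 below were called.

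**Figure D4:**
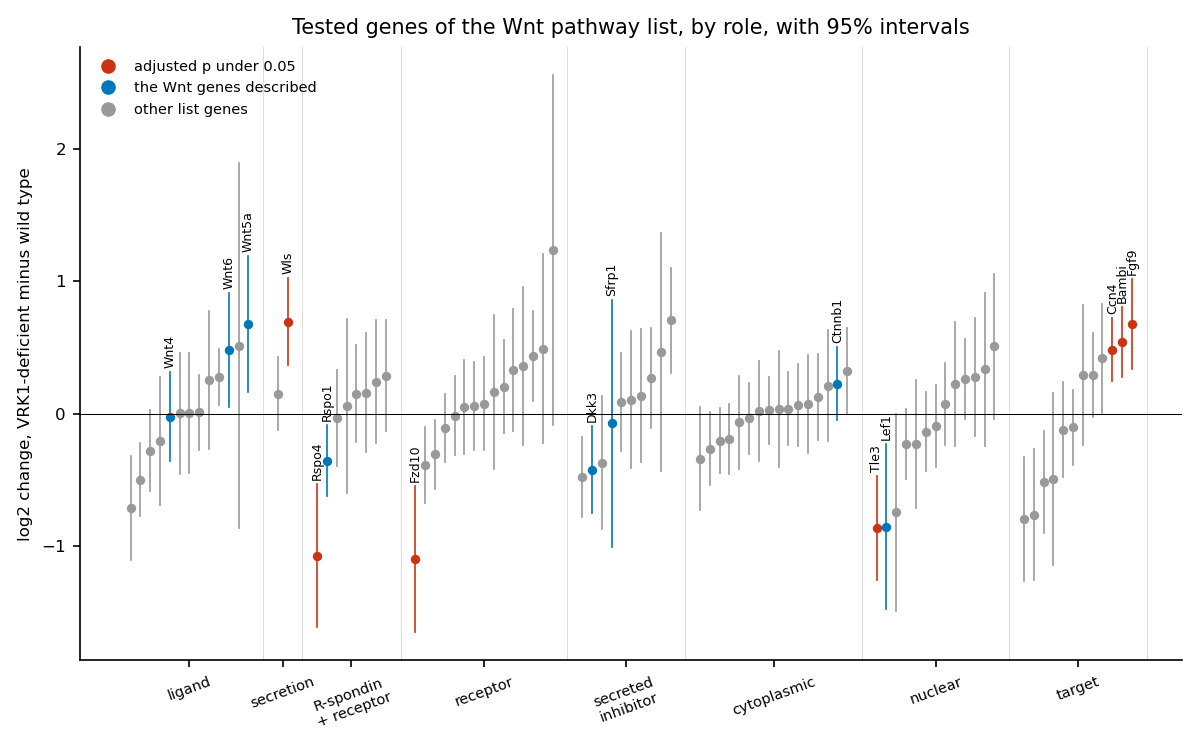
Log2 change (y axis, VRK1-deficient minus wild type) with 95% interval of the 89 tested genes of the Wnt pathway list, sorted within each role (x axis, 1 point per gene). The 7 called genes are red, and the 8 tested genes of the main set, in blue, range from -0.85 (Lef1) to 0.68 (Wnt5a).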

How the data were processed

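The authors labeled total RNA with Cy3, hybridized it to Agilent Whole Genome Mouse arrays, 1 sample per array, and extracted signals with Agilent Feature Extraction 9.5.3.1. The deposited values are its processed signals, linear intensity values with the background subtracted. The deposited value table held the same values (0 unequal). The methods name GeneSpring GX; how its values were normalized is not given in the sources used. Of 45018 spots, 43379 were not controls. Spots marked as outliers were left out (58 to 134 per array), and 0 were saturated. The log2 of the deposited intensity minus the log2 of the 75th percentile of the array was averaged over the spots of a probe, and a probe was tested where 4 or more of the 8 arrays had it well above background. Symbols came from a RefSeq gene table by accession (22951 probes), symbol (6659) or synonym (3109), and 8455 kept the name of the array files. Coordinates are those of the array files (mm7).

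The difference between genotypes was fitted in R 4.3.3 by lmFit and eBayes of limma 3.58.1, with Benjamini-Hochberg adjustment over all 26962 tested probes and calls at 0.05. The comparison was also run on simulated data with independent noise for each probe and 200 changed probes. Those data held no array apart from its group and no slide differences, so the run does not speak to these. The methods' t-test was run on the same values with equal variances. Other steps used Python 3.11.15 with pandas 2.3.3, numpy 2.4.6, scipy 1.17.1 and matplotlib 3.10.9, and the R package data.table, version 1.17.8. The members, the pathway list, the marker lists and the tests were chosen with earlier results of these data known. The genes named are the 9 members, Vrk1, every other called gene of the list, the 2 genes with the largest change in each role, the 3 genes most like Lef1, and markers of lists that moved. The 20 alternatives were other scalings, background corrections, filters and tests, slide or replicate number as a block, each slide alone and each array left out. The normexp correction used an offset of 50, added before the arrays were scaled, which alters the values of dim probes. Samples that share a replicate number were not treated as pairs. Samples are biological replicates, 4 per genotype, grouped by their titles. Histology, staining and qRT-PCR were not analysed here.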

Additional observations from a re-analysis of the deposited data

Results flagged for a closer look

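The 40 groups of 4 arrays of the named Wnt genes were checked for an array far from the rest of its group, which chance alone finds in about 1 in 20 groups. It was found for 1 group. Wls, on its brighter probe, had a log2 level of 0.563 on the lowest VRK1-deficient array, replicate 2, against 0.675 to 0.691 on the other 3. The gap was 0.881 of the range of the group, above Dixon's critical value at 95% for 4 samples, in a group whose whole range was small. That array was still above all 4 wild type arrays.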

How the results depend on the processing

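Of the 8 tested genes 0 were called under 19 of the 20 alternatives, and 4 (Wnt5a, Wnt6, Lef1 and Dkk3) without wild type replicate 1. Leaving out 1 array gave 0 to 4 called members, 0 to 21 called pathway genes and 3 to 7659 called probes, against 7 genes and 986 probes with all arrays. Without filter on dim probes 17 probes and 0 pathway genes were called, with slide as a block 641 and 1, within slide 1 alone 3 and 0, and by the methods' t-test 162 and 2. With an intensity trend and robust variances, 1916 probes were called. Quantile normalization called 4 pathway genes (1 lower, 3 higher) and slide 2 alone 1, and without scaling 5 were called, all lower. With the replicate block 2280 probes and 12 pathway genes were called, but correlations of same-numbered samples were 0.47, 0.07, 0.19 and -0.14, wild type replicate 4 matched another number best, and the numbers were not taken as pairs. The direction of Wnt4 turned to 0.020 with quantile normalization, 0.069 with normexp, 0.063 on slide 2, and 0.080, 0.018 and 0.016 without wild type replicates 1 or 3 or VRK1-deficient replicate 3. That of Sfrp1 turned to 0.10 with the mean of its probes, 0.38 on slide 2, and 0.18, 0.12 and 0.13 without wild type replicate 1 or VRK1-deficient replicates 1 or 2, and leaving out 1 array gave -0.41 to 0.18 for Sfrp1 and -0.14 to 0.080 for Wnt4. The other 6 tested members kept their direction. Without scaling, the median change of all genes was -0.14 in place of 0.044. The cause of these shifts was not tested. Signals near background limit Axin2, Rspo4, Ror1, Pygo1, Wnt2b, Wnt7b and the genes not tested.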

Other observations

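Promoter sequences from RefSeq (GRCm38.p6) were at hand for 6 of the 9 genes, in 10 windows of 250 bases before to 50 bases after a start. They were searched on both strands for CTTTGA and CTTTGT, the core letters bound by LEF1 and TCF factors. Of the 10 windows 1 held a match, compared with 31.2% of 32851 windows of the same length. Some windows of Lef1 and those of Ctnnb1 overlap, so the 10 are not separate promoters. The window with a match was 43.7% G or C and the others 51.7% to 84.3%, and the shares were not matched for this. That window belongs to a start within Lef1 and held 3 matches, as many as or more than which were found in 1.13% of all windows. Its 250 bases before the start, on chr3:131156044-131156293 of the plus strand, are shown with the matches in capitals.
Lef1: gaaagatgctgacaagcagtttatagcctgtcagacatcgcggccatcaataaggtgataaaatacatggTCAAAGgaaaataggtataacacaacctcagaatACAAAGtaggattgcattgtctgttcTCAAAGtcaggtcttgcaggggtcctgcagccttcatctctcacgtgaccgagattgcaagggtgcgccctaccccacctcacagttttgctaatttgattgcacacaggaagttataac
The matches lie 180, 146 and 120 bases before the start. They describe letters in this window, and these arrays do not measure binding or which start of Lef1 was used.

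Among the 14 pathway genes that were not tested, 4 had the same pattern. The ligands Wnt3a and Wnt7a, the secreted inhibitor Notum and the Dickkopf coreceptor Kremen2 were measured above background on wild type replicates 2, 3 and 4 and on none of the other 5 arrays, wild type replicate 1 among them. Kremen2 read -4.14, -4.58 and -4.47 on those 3 arrays, -6.06 on wild type replicate 1 and -6.45 to -5.77 on the VRK1-deficient arrays. VRK1-deficient arrays were taken at the lowest signal that was well above background, or at their own where that was higher. The wild type mean was then 1.76-fold higher for Kremen2, 1.43-fold for Wnt3a, 1.42-fold for Notum and 1.21-fold for Wnt7a. That mean holds replicate 1 at its own value, which was not above background, so these are not strict lower bounds. These genes were singled out for this pattern after their values were seen, so the direction is no test. The share of all genes with the pattern is not given here. The brightest probes of the other 10, Axin2 among them, were not measured above background on any array.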
